A study of Mus musculus with 18 samples.

Results

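The genes described here are 35 DNA damage response and repair genes, chosen by name from the 55401 genes of the mRNA-seq count table, and the circular RNAs (circRNAs) made from their exons. The values come from NIH/3T3 cells, an established mouse embryonic fibroblast line, that were either wild type (WT) or an XPO4 knockout (KO). The KO was 1 line made with CRISPR-Cas9, with a small deletion in exon 1 of both copies of Xpo4, which encodes exportin 4, a nuclear export receptor. No treatment or time course was part of either group. There were 3 WT and 3 KO mRNA-seq libraries of total RNA, and 12 RNase R-treated circRNA libraries, 2 per genotype for whole cells, the cytoplasm (cyto) and the nucleus (nuc). The study examined DNA damage in the XPO4 KO cells, and the comparison made here asks whether RNAs of the damage response differed between the genotypes.

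A conflict in the labels bears on every direction given here. Each mRNA-seq table whose title says KO carries in its column heading the name of a WT alignment, and each WT table carries a KO name. Titles were followed throughout, so "KO" means the library labelled KO, and every mRNA-seq direction would turn around if the headings were right. Xpo4 did not settle it: at 3.08, 2.94 and 2.91 FPKM in WT and 3.71, 2.64 and 3.76 FPKM in KO, its log2 fold change (± SE, as for all log2 fold changes here) was 0.18 ± 0.11, adjusted p = 0.19 in edgeR's quasi-likelihood test, and a small exon deletion need not change a gene's total. The labels also describe RNA extraction from peripheral blood, but the RNA looked like that of fibroblasts. Fibroblast markers summed to 3531 to 3637 FPKM (fragments per kilobase of exon, scaled to library size) in WT and 3826 to 3938 FPKM in KO, with 8 of 12 higher and 3 lower in KO, while 13 of 14 blood, 5 of 6 epithelial and all 5 endothelial markers stayed below 1 FPKM in every library, with Cd3e, S100a9 and Epcam at 0. The epithelial sum, nearly all Krt14, was 2.67 to 2.97 FPKM in WT and 0.301 to 0.671 FPKM in KO. What part these marker shifts have in the changes of the repair genes was not tested. The largest summed level of the blood markers was 4.52 FPKM in WT and 2.06 FPKM in KO. Whole chromosomes also differed: the median log2 fold change was 0.45 on chromosome 10, -0.21 on chromosome 1 and within 0.16 of 0 on the other autosomes and X. The 7 chromosome Y genes tested had a fitted median of 10.00, a value that depends on the prior count where one genotype, here WT as labelled, is near 0. With 1 KO line, an effect of XPO4 loss cannot be told apart from other differences between the KO line and the WT cells. The mRNA-seq libraries held 16974062 to 22057323 counted read pairs. KO replicate 2 stood apart from its group, with a chi-square per degree of freedom of 10.6 and 12.3 against the other KO libraries, compared with 3.06 to 4.98 for all other pairs within a group.

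Cells meet broken or stalled DNA with kinases, ATM at double-strand breaks and ATR at single-stranded DNA, which pass the signal to checkpoint kinases and to proteins that mark the chromatin around the lesion. The break is then rejoined directly by end joining or copied from the sister chromatid by homologous recombination, in which BRCA1, PALB2 and BRCA2 act together. The Fanconi anaemia pathway removes cross-links between strands, and excision repair replaces damaged bases and nucleotides. Many of these genes are transcribed mainly in proliferating cells, and E2F factors at their promoters are one known route.

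Short stretches around promoter motifs and across circRNA junctions are given here, and the junctions show how the circles are joined. RefSeq promoter windows (GRCm38.p6, 250 bases before to 50 after the start site) were at hand for 29 of the 35 genes. An E2F motif (TTTCCCGC, TTTGGCGC, TTTCGCGC or TTTGCCGC on either strand) stood in the windows of 6 of these 29 genes (20.7%), compared with 2.6% of the 27025 genes with a window. Among them were 4 of the 18 genes that fell in the KO and 2 of the other 11. The cell cycle motif TTTGAA stood in 1 of the 29 (3.45%; 20.2% of all genes) and CCAAT in 17 (58.6%; 41.1%). These matches describe letters only. The 6 stretches with an E2F match, in capitals, are given from 5′ to 3′ on the strand of the gene.
Clspn, chr4:126556990-126557019 (plus strand): accgcgtctggGCGCGAAAgctcgaacttc
Chek2, chr5:110839805-110839864 (plus strand): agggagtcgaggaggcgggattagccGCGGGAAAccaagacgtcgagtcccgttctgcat
Brca2, chr5:150522427-150522486 (plus strand): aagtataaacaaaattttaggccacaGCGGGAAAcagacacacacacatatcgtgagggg
Topbp1, chr9:103305172-103305231 (plus strand): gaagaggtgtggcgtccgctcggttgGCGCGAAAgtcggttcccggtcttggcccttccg
Xrcc6, chr15:82016297-82016356 (plus strand): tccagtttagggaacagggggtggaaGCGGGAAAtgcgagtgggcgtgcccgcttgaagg
Mdc1, chr17:35841456-35841497 (plus strand): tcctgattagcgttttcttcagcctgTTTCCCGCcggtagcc

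A circRNA read spans a back-splice junction, where the end of a downstream exon is joined to the start of an upstream one. The 106 circRNAs of these genes were chosen for having both ends on exon edges. All had AG just before and GT just after the circled exons in the genome, which that choice would largely bring about. For 5 of them, the last 15 bases of the downstream exon are given in lower case and the first 15 bases of the upstream exon, to which they are joined, in capitals (GRCm38.p6, gene strand). The Rad52 circle had most reads, 1 Brca2 circle was the only one listed in the nucleus, and the other 3 had opposite genotype differences in whole cells and cytoplasm.
Rad52, chr6:119920110-119921028, exons 10 to 11: ttctaggtagcagagCAGTACTTCCAGCCC
Brca2, chr5:150532055-150532402, exons 6 to 7: ccactgtgctcatagTGGTATCTGGAAGTT
Fanci, chr7:79433183-79438400, exons 21 to 25: ttctccaggctctggGATCATCTGCTGTCT
Brca2, chr5:150566888-150567768, exons 25 to 26: ggaggtcagttcctgGTCTTGCTCCTTTGG
Wrn, chr8:33329102-33353399, exons 2 to 8: ggaaactctccagagGGCATTTTAAAGACA

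All 35 genes passed the filter on low counts, and 22 of them (62.9%) had an adjusted p under 0.05 in edgeR's quasi-likelihood test, in which 48.7% of all 14688 genes tested did. Of the 35, 19 (54.3%) fell and 3 (8.57%) rose in the KO, while over all genes 23.6% fell and 25.1% rose. The median log2 fold change of the 35 genes was -0.24, and that of all genes tested was -0.00. In single libraries the median level of the 35 genes relative to the WT mean, on the log2 scale, was 0.03, -0.00 and -0.01 in WT and -0.24, -0.30 and -0.18 in KO, so every KO library lay below every WT library. The share of genes whose libraries did not overlap between genotypes was 22 of 35, beside 57.8% of all genes. Less RNA per cell and fewer cells in the phase that expresses a gene cannot be told apart in these bulk RNAs, and nothing says whether replicates were separate cultures, so p-values measure the spread between these libraries.

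**Figure D1:**
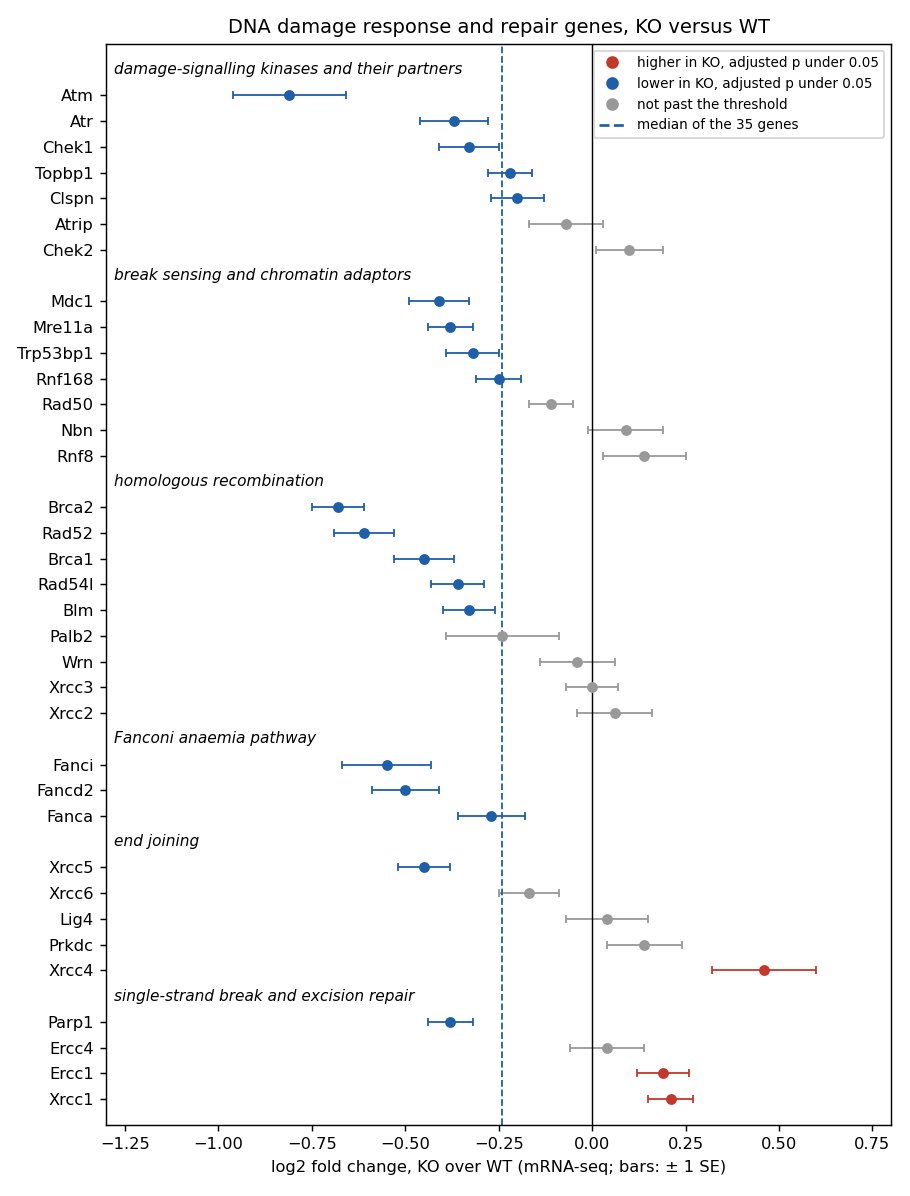
Fold changes of the 35 genes, grouped by role, on the log2 scale (KO over WT, as labelled); points are edgeR estimates from 3 libraries per genotype and bars are 1 SE. Blue points fell and red points rose at an adjusted p under 0.05; Atm lies furthest to the left at -0.81 and Xrcc4 furthest to the right at 0.46, and the dashed line marks the median of -0.24.

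The levels of the 35 genes in WT ran from 35.4 ± 2.701 FPKM for Xrcc5 (mean ± SD, n = 3) down to 1.002 ± 0.0303 FPKM for Rnf8. Xrcc5, a DNA end-binding subunit, and Parp1, the sensor of nicked DNA (32.8 ± 1.19 FPKM), led the order and overlapped each other. Mdc1 followed, below both. Among the 34 pairs of neighbours in this order, 10 had WT libraries that did not overlap, and the 24 others could not be ranked. The signalling kinases Atr and Atm, at 2.02 ± 0.0867 FPKM and 4.45 ± 0.555 FPKM, and the very large kinase gene Prkdc, at 1.74 ± 0.181 FPKM, stood lower in the order.

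Of the 7 damage-signalling genes, 5 fell (71.4%), beside 23.6% of all genes tested. The group median was -0.22. Atm, the kinase that responds to double-strand breaks, had the largest change of all 35 genes, at 4.89, 4.62 and 3.83 FPKM in WT and 2.82, 1.79 and 3.01 FPKM in KO. No KO library reached the lowest WT library, and the log2 fold change was -0.81 ± 0.15, adjusted p = 0.00055. KO replicate 2 was lowest, and without it the value was -0.60 and still passed. Atr, the kinase of stalled forks, measured 2.096, 2.04 and 1.93 FPKM in WT and 1.56, 1.33 and 1.805 FPKM in KO. The genotypes did not overlap (-0.37 ± 0.09, adjusted p = 0.0052). Chek1, the checkpoint kinase that ATR activates, was measured at 6.05, 5.305 and 5.39 FPKM in WT and 4.53, 4.396 and 4.39 FPKM in KO. Its KO libraries lay close together and below all WT libraries (-0.33 ± 0.08, adjusted p = 0.0043). Topbp1, an activator of ATR, stood at 16.5, 17.2 and 16.2 FPKM in WT and 13.96, 14.01 and 14.96 FPKM in KO, a narrow but complete separation (-0.22 ± 0.06, adjusted p = 0.0054). Topbp1 is long, and after subtraction of the median of genes of like length its difference was -0.10. Clspn encodes claspin, the adaptor between ATR and CHK1. It gave 9.86, 9.59 and 10.5 FPKM in WT and 8.44, 7.99 and 9.69 FPKM in KO, with KO replicate 3 inside the WT range (-0.20 ± 0.07, adjusted p = 0.04), and it missed the threshold when any library other than KO replicate 3 was left out. The ATR partner Atrip (log2 fold change -0.07 ± 0.10, adjusted p = 0.59) did not pass. Chek2, the checkpoint kinase downstream of ATM, was at 5.67, 5.34 and 5.66 FPKM in WT and 6.33, 6.096 and 5.44 FPKM in KO, with overlapping genotypes (0.10 ± 0.09, adjusted p = 0.38). Of these 7 genes, Atm, Atr, Atrip, Chek1 and Topbp1 lie on chromosome 9, whose 801 genes tested had a median of 0.02.

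Of the 7 genes of break sensing and chromatin adaptors, 4 fell (57.1%), beside 23.6% of all genes tested. The group median was -0.25. Mre11a encodes the nuclease of the MRN complex that first binds broken ends. It measured 8.08, 7.96 and 7.87 FPKM in WT and 6.18, 6.23 and 5.92 FPKM in KO, with tight groups (-0.38 ± 0.06, adjusted p = 0.00021). The other MRN subunits did not follow at the threshold. Rad50 stood at 11.6, 11.4 and 11.6 FPKM in WT and 10.9, 10.2 and 10.9 FPKM in KO, which did not overlap but missed it (-0.11 ± 0.06, adjusted p = 0.13). Nbn gave 9.52, 10.8 and 10.9 FPKM in WT and 9.62, 12.6 and 11.02 FPKM in KO, which overlapped (0.09 ± 0.10, adjusted p = 0.46). Mdc1, the scaffold that binds phosphorylated H2A.X, was at 20.1, 18.9 and 17.9 FPKM in WT and 14.4, 12.4 and 16.02 FPKM in KO. All KO libraries lay below all WT libraries, replicate 2 lowest (-0.41 ± 0.08, adjusted p = 0.0011). Trp53bp1, which encodes 53BP1 and favours end joining, measured 5.48, 5.16 and 4.71 FPKM in WT and 4.35, 3.75 and 4.21 FPKM in KO (-0.32 ± 0.07, adjusted p = 0.0029). The ubiquitin ligase Rnf168, which recruits 53BP1, was found at 16.5, 16.1 and 15.4 FPKM in WT and 13.4, 13.01 and 14 FPKM in KO, again without overlap (-0.25 ± 0.06, adjusted p = 0.0035). Rnf8, the ligase acting before it and the gene with the lowest mean FPKM of the 35 in WT, did not pass (0.14 ± 0.11, edgeR adjusted p = 0.31).

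Of the 9 homologous recombination genes, 5 fell (55.6%), beside 23.6% of all genes tested. The group median was -0.33. Brca2 acts on resected DNA, and its RNA had the smallest adjusted p of the 35. It measured 3.56, 3.303 and 3.39 FPKM in WT and 2.11, 2.08 and 2.22 FPKM in KO, so that the KO libraries lay close together and well below the lowest WT library (-0.68 ± 0.07, adjusted p = 2.5e-06). Rad52, an annealing protein, gave 5.94, 5.98 and 6.53 FPKM in WT and 4.16, 3.77 and 4.17 FPKM in KO (-0.61 ± 0.08, adjusted p = 2.2e-05). Brca1, a ubiquitin ligase that promotes end resection, was at 6.71, 6.91 and 6.08 FPKM in WT and 4.55, 4.42 and 5.47 FPKM in KO (-0.45 ± 0.08, adjusted p = 0.00068). In each of these 3 genes the groups were apart. The motor protein gene Rad54l measured 5.07, 4.72 and 4.57 FPKM in WT and 3.52, 3.72 and 3.93 FPKM in KO (-0.36 ± 0.07, adjusted p = 0.0012). Blm, the Bloom helicase, stood at 4.85, 4.51 and 4.65 FPKM in WT and 3.75, 3.56 and 3.84 FPKM in KO (-0.33 ± 0.07, adjusted p = 0.0012). Both fell by a similar amount. Palb2, which bridges BRCA1 and BRCA2, did not pass (-0.24 ± 0.15, adjusted p = 0.18), with its KO replicate 1 inside the WT range. Xrcc3, which also acts in recombination, gave 9.81, 9.8 and 10.4 FPKM in WT and 10.4, 10.03 and 9.59 FPKM in KO, with the same mean of 10.0 FPKM in both genotypes (-0.00 ± 0.07, adjusted p = 1). Xrcc2, a gene of the same pathway (0.06 ± 0.10, adjusted p = 0.66), and the Werner helicase Wrn (-0.04 ± 0.10, adjusted p = 0.77) did not pass either.

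All 3 Fanconi anaemia genes fell (median -0.50), beside 23.6% of all genes tested. Fancd2 and Fanci encode the pair of proteins that are ubiquitylated together at a cross-link. Fancd2 measured 3.73, 3.505 and 3.17 FPKM in WT and 2.37, 2.31 and 2.65 FPKM in KO (-0.50 ± 0.09, adjusted p = 0.0004), and Fanci 4.44, 4.11 and 4.53 FPKM in WT and 3.32, 2.35 and 3.29 FPKM in KO (-0.55 ± 0.12, adjusted p = 0.0016). Neither overlapped between genotypes, and for Fanci the library furthest away was KO replicate 2. Fanca, a subunit of the ligase complex that modifies both, was at 6.27, 6.299 and 6.35 FPKM in WT and 5.75, 4.34 and 5.65 FPKM in KO (-0.27 ± 0.09, adjusted p = 0.026). Fanca rested on that same library: without KO replicate 2 its value was -0.14 and did not pass, and leaving out any one WT library also ended the call.

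End joining showed no common direction (median 0.04 over 5 genes). Xrcc5, which encodes KU80, fell, at 32.9, 38.2 and 35 FPKM in WT and 25.9, 27.5 and 23.99 FPKM in KO (-0.45 ± 0.07, adjusted p = 0.00016). It lies on chromosome 1, and relative to the median of that chromosome the difference was -0.24. Its partner in the KU ring, Xrcc6 (KU70), measured 9.72, 10.6 and 10.7 FPKM in WT and 8.47, 10.4 and 8.68 FPKM in KO and overlapped (-0.17 ± 0.08, adjusted p = 0.12), though it passed at -0.26 without KO replicate 2. Xrcc4, the scaffold of DNA ligase IV, rose, from a low level, at 1.395, 1.16 and 1.31 FPKM in WT and 1.94, 1.64 and 1.73 FPKM in KO (0.46 ± 0.14, adjusted p = 0.016). The call was lost without WT replicate 2 or KO replicate 1. Lig4, the ligase itself (0.04 ± 0.11, adjusted p = 0.8), and Prkdc, the catalytic subunit of DNA-PK (0.14 ± 0.10, adjusted p = 0.27), did not pass.

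Genes of single-strand break and excision repair moved in both directions. Parp1 fell, at 32.4, 31.8 and 34.1 FPKM in WT and 23.9, 26.8 and 24.7 FPKM in KO (-0.38 ± 0.06, adjusted p = 0.00016); it too lies on chromosome 1, relative to which the difference was -0.17. Xrcc1, the scaffold that PARP1 recruits to nicks, rose, at 9.65, 9.68 and 10.5 FPKM in WT and 11.7, 11.6 and 11.2 FPKM in KO (0.21 ± 0.06, adjusted p = 0.012). Ercc1 encodes a subunit of a nuclease that cuts beside bulky lesions. It stood at 16.04, 16.9 and 17.7 FPKM in WT and 18.1, 20.7 and 19.1 FPKM in KO, above every WT library (0.19 ± 0.07, adjusted p = 0.031). Ercc4, which encodes its catalytic partner, did not pass (0.04 ± 0.10, adjusted p = 0.75). Both rises were small, 15.4% for Xrcc1 and 14.4% for Ercc1, and each lost its call without WT replicate 1 or 2. Ercc1 also lost its call with DESeq2, with upper-quartile scaling and without KO replicate 2.

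**Figure D2:**
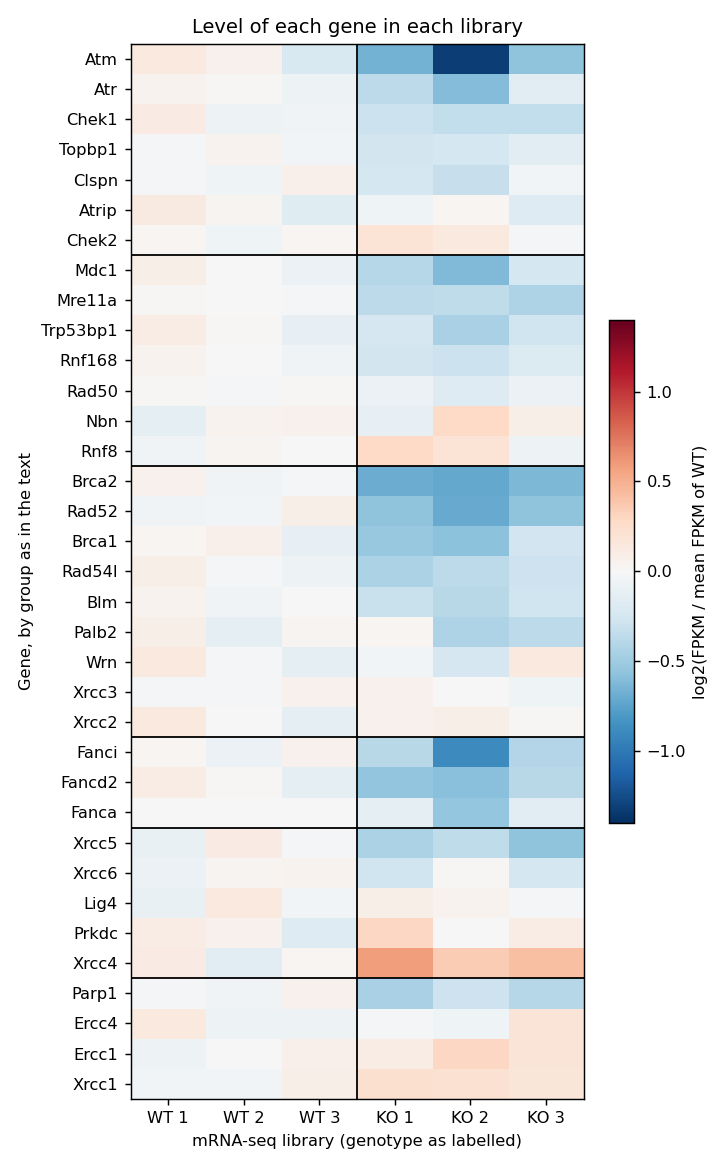
Level of each of the 35 genes in each mRNA-seq library, as log2 of its FPKM over the mean FPKM of the 3 WT libraries; rows are genes by role, columns are libraries, and black lines part the groups. Most rows are blue in all 3 KO columns, Atm is darkest in KO replicate 2, and Xrcc4 is red in all 3.

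Length moved with these differences. The median exonic length of the 35 genes was 6.73 kb, against 3.96 kb over all genes tested, and 17 of the 35 were in deciles 9 and 10 of length. All genes of those deciles had median log2 fold changes of -0.05 and -0.11, and medians of -0.10 and -0.19 for KO replicate 2 against the other KO libraries. KO replicate 2 held the lowest level of 16 of the 35 genes. After subtraction of the median of like-length genes, the median of the 35 was -0.20, and after subtraction of the chromosome median it was -0.22. Single genes moved as well. Relative to like-length genes Brca2 was at -0.57 and Trp53bp1 at -0.21. Relative to the chromosome medians Rad52 was at -0.48 and Fancd2 at -0.38 (both chromosome 6), and Rnf168 at -0.20 (chromosome 16). Without KO replicate 2, 18 of the 35 fell and 2 rose. Part of the exons of 16 genes also lies in another gene, where counting without strand cannot assign a read. The share was above 10% for Atrip, Fanci, Rad54l, Trp53bp1, Rnf8 and Fanca, at most 16.0%.

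**Figure D3:**
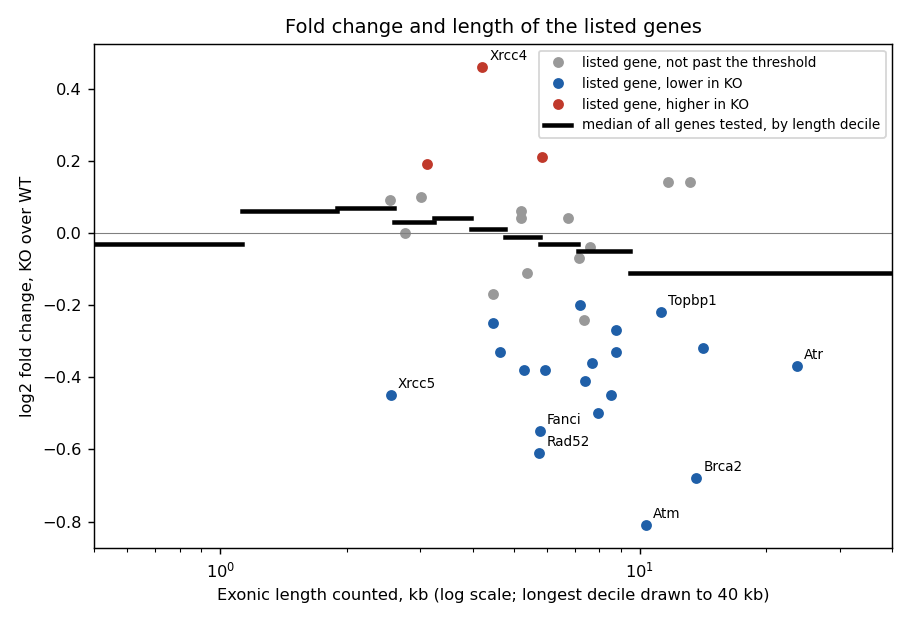
Log2 fold change (KO over WT) of the 35 genes against the exonic length counted, in kb on a log axis, with black bars for the median of all genes tested in each decile of length. The bars slope from 0.07 in decile 3 to -0.11 in decile 10, which is drawn to 40 kb, and the 19 genes that fell lie below the bar of their length.

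Of 132 further repair genes, listed by pathway, 131 were tested; 40 fell and 16 rose, with a median of -0.08. This share of calls, 42.7%, is below that of all genes (48.7%). Over all genes tested 23.6% fell and 25.1% rose, and the counts of each list below are to be read beside these shares. Among 22 other recombination genes 8 fell and 4 rose (median -0.13). The helicase gene Recql4 went from a mean of 7.699 FPKM in WT to 5.23 FPKM in KO (-0.56 ± 0.07, adjusted p = 3.6e-05 in edgeR). Rmi2, a partner of BLM, went from a mean of 3.37 FPKM in WT to 2.06 FPKM in KO (-0.71 ± 0.10, adjusted p = 5.7e-05 in edgeR). Slx4 (log2 fold change -0.40) and the nuclease gene Exo1 (-0.39) fell too. Sfr1 and Swi5, whose proteins form a complex, both rose, Sfr1 from a mean of 86.03 FPKM in WT to 145 FPKM in KO (0.75 ± 0.06, adjusted p = 3.2e-07) and Swi5 by 0.37, followed by Rad51c (0.41) and Dna2 (0.43). Exo1 lies on chromosome 1 and Dna2 on chromosome 10, and relative to the chromosome medians they were at -0.18 and -0.02.

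The 12 other Fanconi genes held the largest rise of any repair gene tested. Fancf, an adaptor of the core ligase, was at 6.45, 6.92 and 6.54 FPKM in WT and 15.2, 15.6 and 15.7 FPKM in KO (1.22 ± 0.08, adjusted p = 7.8e-08), far above WT in each KO library. In the opposite direction, Fancg (-0.60), Fancm (-0.36), Fan1 (-0.57) and Fancl (-0.22) were among 5 that fell. Of 8 other end joining genes tested 6 fell and 1, Aplf (0.27), rose (median -0.33). These included Lig3 (-0.41), the polymerase gene Polq of microhomology-mediated joining (-0.55), Nhej1 (-0.56) and Poll (-0.28).

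Of 7 mismatch repair genes, 4 fell (57.1%), beside 23.6% of all genes tested (list median -0.19). Among them were Msh3 (-0.60) and Msh6 (-0.19), which encode mismatch recognition subunits, and Pms1 (-0.48). In base excision repair 7 of 20 fell, among them the glycosylase genes Mbd4 (-0.72) and Neil3 (-0.42), Parp2 (-0.34) and the ligase gene Lig1 (-0.42), whereas the flap nuclease gene Fen1 rose (0.57). The largest drop of that list by fold was in Neil2, named after its value was seen, from very low levels of 0.2103, 0.246 and 0.154 FPKM in WT and 0.07799, 0.0785 and 0.0703 FPKM in KO. Nucleotide excision repair had 2 of 18 genes in each direction, with Gtf2h1 (0.32) among those up and Ercc6 (-0.37) and Gtf2h3 (-0.19) down. Damage tolerance had 3 of 13 up, Ube2n (0.88), Hltf (0.30) and Shprh (0.22), and 2 down, Rev1 (-0.35) and Rad18 (-0.17). Ube2n and Shprh lie on chromosome 10, and relative to its median they were at 0.43 and -0.23.

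Checkpoint clamp, RPA and fork protection genes went both ways, 4 of 17 down and 3 up. Hus1, a subunit of the clamp, measured 4.45, 4.89 and 4.29 FPKM in WT and 3.18, 2.49 and 3.34 FPKM in KO (-0.60 ± 0.10, adjusted p = 0.00038), with KO replicate 2 lowest. Rad1 (-0.25), Zranb3 (-0.30) and Cdc25c (-0.22) also fell, and Tipin (0.43), Rpa1 (0.22) and Cdc25a (0.17) rose. Of 14 break-site chromatin genes 3 passed, a share of 21.4%. H2afx, which encodes the histone H2A.X whose phosphorylated form marks damage, was at 49.4, 50.5 and 49.6 FPKM in WT and 60.9, 72.4 and 59.8 FPKM in KO (0.37 ± 0.07, adjusted p = 0.00089), above WT in every KO library. Rnf169 (-0.48) and Usp28 (-0.29) fell. Of the genes named in these lists, Nhej1, Pms1, Rev1 and Zranb3 lie on chromosome 1, and relative to its median they were at -0.36, -0.27, -0.14 and -0.09. Hltf, on chromosome 3, was at 0.14 relative to the median there.

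**Figure D4:**
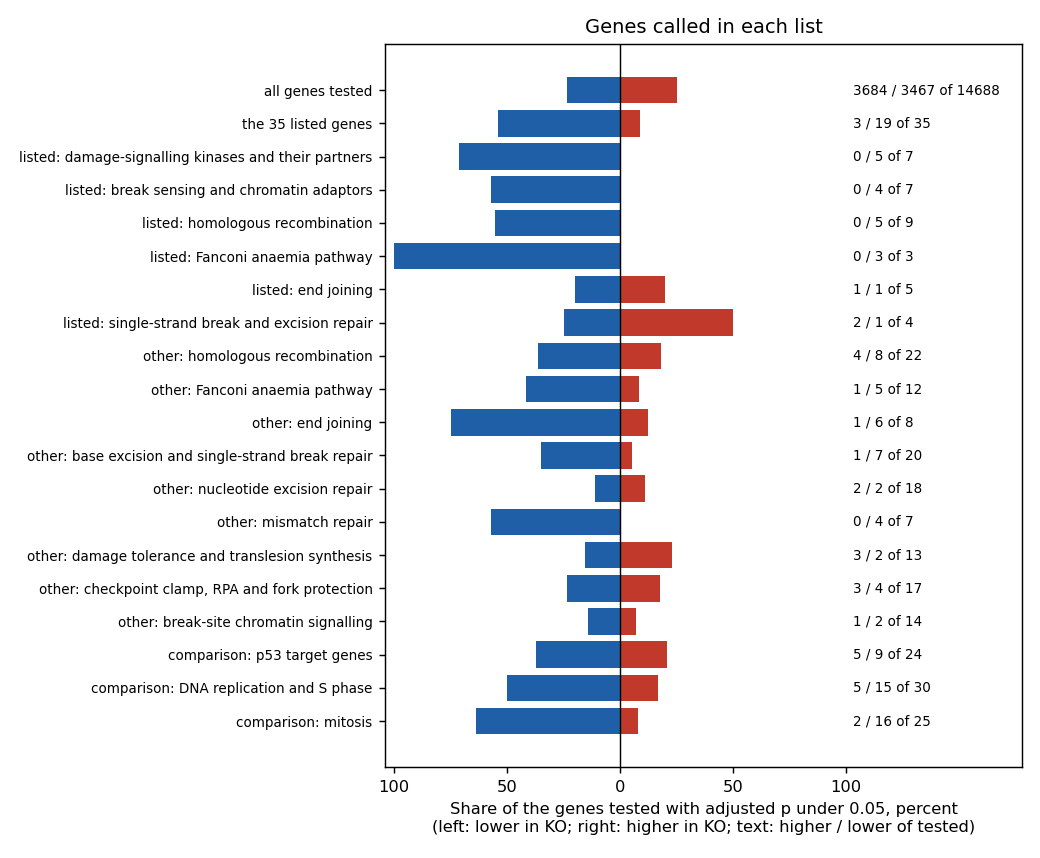
Share of the genes tested in each list that fell (left, blue) or rose (right, red) at an adjusted p under 0.05, in percent; the text at the right gives the numbers that rose, fell and were tested. For all genes the bars are near equal at 23.6% and 25.1%; for the 35 listed genes they are 54.3% and 8.57%.

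Genes of the cell cycle also fell more often than they rose, while over all genes tested 23.6% fell and 25.1% rose. Of 30 DNA replication and S phase genes 15 fell and 5 rose (median -0.18), and of 25 mitosis genes 16 fell and 2 rose (median -0.18). The helicase subunit genes Mcm6, Mcm5 and Mcm7 fell by 0.54, 0.42 and 0.42 on the log2 scale, and the polymerase gene Pole fell by 0.54. Cenpf (-0.65), Cenpe (-0.38), Kif20a (-0.41) and Ttk (-0.39) fell in the mitosis list. Against these, E2f1 was at 12.9, 12.7 and 12.2 FPKM in WT and 18.4, 17.9 and 17.96 FPKM in KO (0.52 ± 0.06, adjusted p = 1.1e-05), higher in all 3 KO libraries, with Ccne1 (0.44), Ccne2 (0.42) and Prim1 (0.26), and Cdk1 (0.57, 0.12 relative to chromosome 10) and Ube2c (0.32). Relative to their chromosome medians Mcm6 and Cenpf were at -0.33 and -0.44 (chromosome 1), Cenpe at -0.54 (chromosome 3) and Prim1 at -0.19 (chromosome 10). What part these lists' changes have in those of the repair genes was not tested.

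Target genes of p53, the factor that damage signalling stabilizes, showed no common direction, with 9 of 24 lower and 5 higher (median -0.06). Fas, a death receptor gene, had the largest change of this list, at 26.2, 27.1 and 27.1 FPKM in WT and 4.201, 4.42 and 3.96 FPKM in KO (-2.67 ± 0.08, adjusted p = 2.2e-11). Sesn2 (-0.72), Trp53inp1 (-0.66) and Bbc3 (-0.90), which encodes PUMA, fell too. Plk3 (0.67), Bax (0.36), Sesn1 (0.62) and Mdm2 (0.45) rose, though Mdm2 and Sesn1 lie on chromosome 10, and relative to its median they were at 0.01 and 0.18.

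CircRNAs of these genes were sparse. Of 16171 circRNAs over the 12 libraries, 106 had both ends on exon edges of a listed gene, from 28 of the 35 genes. None was listed for Atrip, Chek1, Ercc1, Lig4, Mdc1, Xrcc2 or Xrcc3. Each fraction listed its own circles: 54 were in whole cells alone, 31 in the cytoplasm alone, 20 in both and 1 in the nucleus. A circRNA's level here is the number of reads that span its back-splice junction. Whole-cell and cytoplasmic libraries held 50341 to 81941 such reads in all and nuclear libraries 2189 to 4383, and every circle listed had at least 4, 5 and 3 reads over the 4 libraries of its fraction. The listed genes gave 241, 256, 267 and 250 whole-cell reads in KO replicates 1 and 2 and WT replicates 1 and 2. In the cytoplasm they gave 210, 206, 314 and 369, in the same order. As shares of all junction reads these were 0.414%, 0.509%, 0.462% and 0.454% in whole cells. The cytoplasmic shares were 0.415% (95% exact binomial interval 0.361 to 0.475), 0.325% (0.282 to 0.373), 0.404% (0.36 to 0.451) and 0.45% (0.406 to 0.499). The genotypes overlapped in whole cells and in the cytoplasm, and the intervals cover counting error only.

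In the nucleus a single circle of these genes was listed, and it was chosen for mention after its values were seen. It joins exons 6 and 7 of Brca2 (chr5:150532055-150532402) and had 8 and 5 reads in KO and 7 and 5 reads in WT, in libraries of 3743, 4383, 2189 and 2635 reads. The raw reads overlapped, and its log2 fold change was -0.82 (adjusted p = 0.44 in edgeR; unadjusted p above 0.05). Over all 651 nuclear circRNAs tested 10.1% were called, 8.45% lower and 1.69% higher, and DESeq2 called none. That split is not stable: edgeR called 17 higher and 3 lower without KO replicate 1 and 21 higher and 8 lower without KO replicate 2, while the median over all was 0.44. The raw reads of KO lay wholly above WT for 47.3% of the nuclear circRNAs listed and wholly below for 13.6%. Nuclear libraries held more junction reads in KO (3743 and 4383) than in WT (2189 and 2635), so these raw reads are not on the same scale in the 2 genotypes.

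In the cytoplasm 24 of the 49 circles tested (49%) were called, 14 lower and 10 higher in KO, beside 53.5% of all 8917 cytoplasmic circRNAs. That share is near the background, and a different tool left far fewer calls: DESeq2 called 1 of these circles, and edgeR called 5 without KO replicate 1, 4 without KO replicate 2 and 11 without WT replicate 2. The median log2 fold change was -0.99, against -0.25 over all cytoplasmic circRNAs tested. Raw reads of the genotypes did not overlap for 44 of 51 circles, 31 with KO lower and 13 with KO higher. Over all cytoplasmic circRNAs they did not overlap for 82.7%, with KO lower for 49.5% and higher for 33.2%. The libraries held fewer junction reads in KO (50629 and 63335) than in WT (77818 and 81941), so raw cytoplasmic reads are not on the same scale in the 2 genotypes. In whole cells edgeR called none of the 63 circles tested, nor any of all 8903 (0%), and DESeq2 called none of the 63 and 7 of all; 25 of the 63 and 3405 of all had an unadjusted p under 0.05. Scaling to junction totals and the replicate block each called 16 of the 63, 8 in each direction, and 2003 and 2054 of all. Here the raw reads did not overlap for 54 of 74 circles, and for 68.2% of all.

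The 10 circles with most reads came from 7 genes, and the tenth was tied at 35 reads with the Wrn circle of exons 24 to 27, which had 5 and 7 cytoplasmic reads in KO and 0 and 1 in WT (adjusted p = 0.0012). The first, exons 10 and 11 of Rad52 (chr6:119920110-119921028), was listed in the cytoplasm alone, with 59 and 56 reads in KO and 62 and 77 in WT. Its absence from the whole-cell lists was taken as 0, but need not mean that whole cells held no such read. The raw cytoplasmic reads of this circle are those compared next. Its raw reads were lower in KO but its scaled log2 fold change was 0.29 (adjusted p = 0.75). A second Rad52 circle, exons 2 to 7 (chr6:119911048-119916042), had 2 and 1 cytoplasmic reads in KO and 5 and 13 in WT (adjusted p = 0.022), and 2 and 2 against 5 and 5 in whole cells. The Palb2 circle of exons 6 to 10 (chr7:122113250-122123708) had 10 and 6 cytoplasmic reads in KO and 13 and 15 in WT (adjusted p = 0.7). An Xrcc4 circle of exons 4 to 6 (chr13:89991073-90001084) had 2 and 6 against 5 and 19 there (adjusted p = 0.15). Neither passed the test. The raw Palb2 reads of KO lay below those of WT there, in libraries that were shallower in KO. The raw Xrcc4 reads overlapped there, while in whole cells the Xrcc4 circle had 8 and 9 reads in KO and 4 and 6 in WT (edgeR, adjusted p = 0.27). Of 2 Xrcc6 circles, that of exons 4 and 5 (chr15:82022445-82023061) gave 10 and 7 cytoplasmic reads in KO and 9 and 7 in WT. The longer one, exons 4 to 7 (chr15:82022445-82027411), gave 2 and 2 in KO and 9 and 12 in WT (adjusted p = 0.018). They share a first exon and differed in whether the genotypes overlapped. Circles of Xrcc5 exons 3 to 5 (chr1:72312408-72315581; 4 and 6 in KO, 4 and 9 in WT) and of Topbp1 exons 17 to 19 (chr9:103334056-103336166; 8 and 3, 11 and 8) overlapped between genotypes in the cytoplasm. In whole cells they did not overlap, the Xrcc5 circle with 9 and 7 in KO and 5 and 5 in WT (adjusted p = 0.33) and the Topbp1 circle with 1 and 2 in KO and 5 and 6 in WT (adjusted p = 0.1). A further Xrcc5 circle, exons 17 to 19 (chr1:72381619-72383769), had 2 and 2 cytoplasmic reads in KO and 8 and 8 in WT (edgeR, adjusted p = 0.079). In whole cells it had 2 and 4 reads in KO and 6 and 5 in WT (edgeR, adjusted p = 0.37), and it passed in neither fraction. The last, exons 21 to 25 of Fanci (chr7:79433183-79438400), had 0 and 1 cytoplasmic reads in KO and 5 and 5 in WT (adjusted p = 0.037), and 9 and 11 whole-cell reads in KO and 4 and 4 in WT. It was 1 of 6 circles of these genes, of 94 tested (6.38%), whose KO effect differed between cytoplasm and whole cells, in a test that called 7.41% of all circRNAs. All 6 were among the 20 circles of these genes listed in both fractions, and the others entered that test as 0 in 1 fraction.

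**Figure D5:**
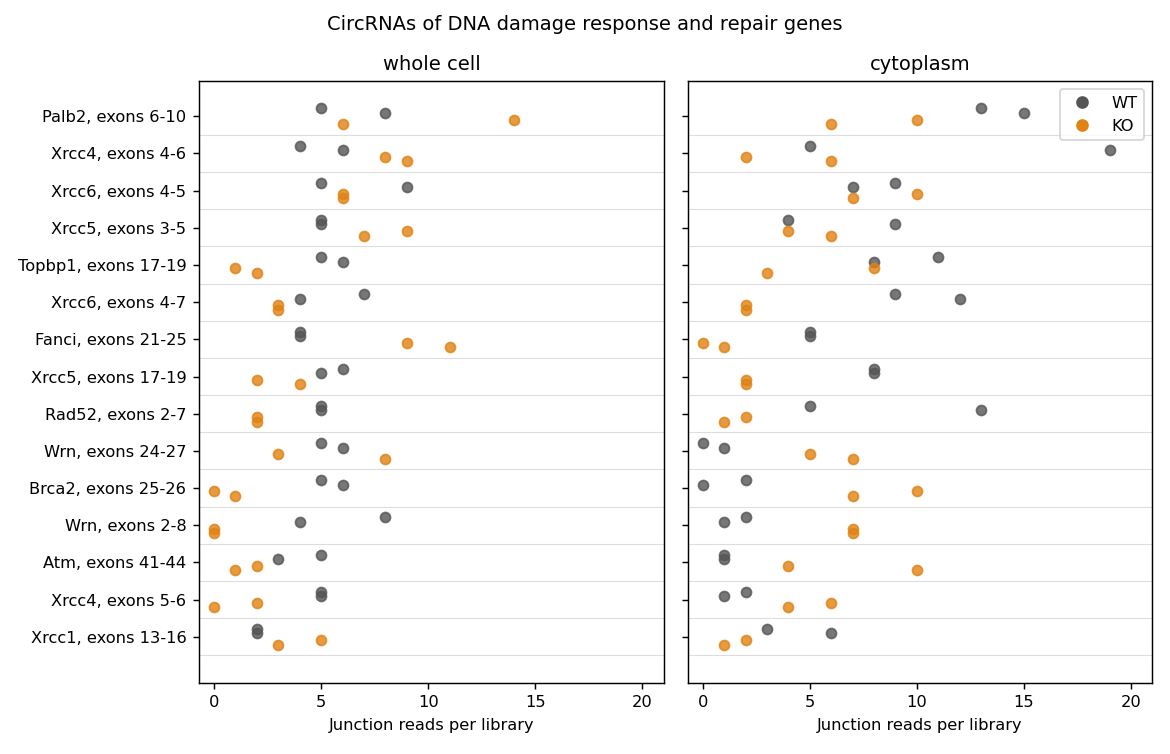
Junction reads per library in whole cells (left) and cytoplasm (right) for 15 circRNAs of the listed genes: 9 of the 10 with most reads, and 6 more with opposite genotype differences in the 2 fractions or a tested difference between them; each point is 1 library, 2 per genotype, and points of equal value are set apart vertically. The Rad52 circle of exons 10 and 11 is left out because its 56 to 77 reads lie off the axis; for Brca2 exons 25 to 26 the KO points are left of WT in whole cells and right of WT in the cytoplasm.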

How the data were processed

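Gene counts and back-splice junction counts were used as the authors deposited them, with groups taken from the sample titles. Per the file headers and labels, the authors aligned mRNA-seq reads to mm10 with HISAT2 and counted read pairs per gene with featureCounts 2.0.0, without strand. CircRNA junctions were called with find_circ v1.2, and each deposited list holds circles that passed a read minimum over the libraries of its fraction, so a circle absent from a list was taken as 0 there. Genes were tested with edgeR 4.0.16 (R 4.3.3): filterByExpr, TMM scaling, quasi-likelihood test of KO against WT, Benjamini-Hochberg adjustment over all features tested, threshold 0.05. CircRNAs with at least 10 junction reads over the 4 libraries of a fraction were tested per fraction with the same test. FPKM were computed from the counts, the exonic lengths in the files and the TMM-scaled totals. DESeq2 1.42.0 was an alternative. The tests were tested on simulated data, where 72% of genes changed 1.5-fold and 95% changed 2-fold were recovered in the mRNA-seq comparison of 14639 genes. That simulation had a fixed spread between libraries and far fewer changed genes than were called in the data. Named genes were the members past the threshold, the 5 others with the highest FPKM, up to 4 called genes per direction with the smallest p in each other list, and the 10 circles with most reads. The members and lists were chosen with earlier results of these data known. RefSeq sequences are of GRCm38.p6. Some genes that the naming rule selects are not reported here.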

Additional observations from a re-analysis of the deposited data

Results flagged for a closer look

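For 6 of 94 circRNAs of the listed genes tested (6.38%) the KO effect in the cytoplasm differed from that in whole cells. This is a test of the difference itself (genotype by fraction, edgeR, adjusted over 13729 circRNAs), chosen after the data were seen. It called 7.41% of all circRNAs. All 6 were among the 20 circles of these genes listed in both fractions. The other circles entered as 0 in 1 fraction, so these shares do not show how the listed genes compare with all circRNAs. The Fanci circle of exons 21 to 25 differed by -3.92 on the log2 scale (adjusted p = 0.02), with more KO than WT reads in whole cells and fewer in the cytoplasm. The other 5 differed in the opposite direction. The Brca2 circle of exons 25 to 26 had 0 and 1 reads in KO and 5 and 6 in WT in whole cells, but 10 and 7 in KO and 2 and 0 in WT in the cytoplasm, a difference of 6.54 (adjusted p = 0.0015). The Wrn circle of exons 2 to 8 had no whole-cell read in either KO library, so its fitted difference of 8.35 (adjusted p = 0.00083) depends on the prior count and is no bound. A second Wrn circle, exons 24 to 27, differed by 3.66 (adjusted p = 0.038), an Atm circle of exons 41 to 44 by 4.42 (adjusted p = 0.01) and an Xrcc4 circle of exons 5 to 6 by 4.28 (adjusted p = 0.018). The Xrcc1 circle of exons 13 to 16 had KO reads above WT in whole cells and below WT in the cytoplasm, but its difference of -2.04 did not pass (adjusted p = 0.55). Each value rests on 2 libraries per genotype and fraction and at most 11 reads in a library.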

How the results depend on the processing

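The counts of listed genes called in the mRNA-seq comparison stayed within 1.5 times the main count of 22 under every alternative run, from 17 to 22 when 1 library was left out. DESeq2 called 18 lower and 2 higher, upper-quartile scaling 19 lower and 2 higher. Over all genes DESeq2 called 6438 of 27839 and upper-quartile scaling 7195 of 14688. With 1 library left out, 6143 to 7397 of all genes were called. With the replicate number as a block, 22 listed genes and 7124 of all genes were called, and numbers did not pair the samples (same-number correlations 0.05, 0.02 and -0.07 in mRNA-seq, -0.01, -0.02 and 0.02 in circRNAs). Calls were lost in at least 1 alternative for Clspn, Ercc1, Fanca, Xrcc1 and Xrcc4, and gained for Palb2 and Xrcc6. The circRNA calls were unstable. In the cytoplasm the 24 listed circles called became 11 without scaling, 1 with DESeq2 and 4 to 18 with 1 library left out. Over all cytoplasmic circRNAs the calls split into 2671 higher and 2097 lower, without scaling into 837 and 1516, with DESeq2 into 755 and 124. In whole cells the count of 0 became 16 with scaling to junction totals, 16 with the replicate block and 0 to 4 with 1 library left out. The causes were not tested. Over all nuclear circRNAs 11 were higher and 55 lower, none without scaling or with DESeq2, and the split turned to 17 higher and 3 lower without KO replicate 1 and to 21 and 8 without KO replicate 2. In simulated data with 2 libraries per group, 4-fold changes were recovered in 21% of nuclear and 4% of cytoplasmic or whole-cell circRNAs changed. The simulation had a fixed spread between libraries and few changed circRNAs. In the data themselves 53.5% of cytoplasmic circRNAs were called, so these recovery rates do not describe that fit.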
